A study of Mus musculus with 2 samples.

Results

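Described here are 8 of the 1973 rows of a microRNA-seq count table of mouse fetal intestine, each with almost all of its reads on the strand opposite to the annotated gene. They are Gm25301, Gm25927, Gm24321, Gm24083, Gm25252, Mir299b, Gm25750 and Gm24111, and they lie at the loci of Mir378a, Mirlet7e, Mir409, Mir191, Mir376a, Mir299a, Mir380 and Mirlet7f-1, in that order. Mir142b and Mir497b were read in the same way and are not among the 8. The members were chosen from measured values, namely the strand on which the reads of these same libraries lay, so their levels and strand shares are given as a description without a test. The libraries were made from RNA shorter than 30 nt from whole intestine of B6NCrl embryos at embryonic day 16.5, both sexes pooled. The 2 libraries, replicate 2 from 41 embryos and replicate 1 from a pool whose size is not given in the sources used here, are labelled as biological replicates and form a single group, so no condition, genotype or treatment is compared. Whole intestine mixes epithelium, muscle, nerve, vessel and blood cells, and fewer cells of a type and less RNA per cell cannot be told apart in it.

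MicroRNAs are cut from a transcript that folds back on itself into a hairpin, first by Drosha in the nucleus and then by Dicer in the cytoplasm, which leaves a short duplex of a 5p and a 3p arm. The arm loaded into Argonaute pairs with messenger RNAs mainly through its seed, bases 2 to 8, so miRNAs with the same seed share many targets. The DNA strand opposite to a hairpin is complementary to it and often could fold into a hairpin too, and for this reason the strand of a small RNA read decides which gene it can come from. The loci at these rows carry known miRNAs. Mir378a is an intronic miRNA of Ppargc1b, a coactivator of mitochondrial gene expression, Mirlet7e and Mirlet7f-1 belong to the let-7 family that restrains growth and pluripotency genes late in development, and Mir191 is a broadly expressed miRNA transcribed with Mir425. Mir299a, Mir380, Mir376a and Mir409 belong to the imprinted Dlk1-Dio3 domain, whose miRNAs are expressed from the maternal chromosome in embryo and placenta.

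The annotation places a known miRNA gene on the strand of the reads at each of the 8 rows, and the sequences of those genes are shown because the reads of the rows can hold them. RefSeq (GRCm38.p6) had an entry for 7 of the 8 loci in the table used. The 14 mature arms of these 7 loci follow 5′ to 3′, with the seed in capitals.
let-7e-5p: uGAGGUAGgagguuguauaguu
let-7f-5p: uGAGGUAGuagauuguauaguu
let-7e-3p: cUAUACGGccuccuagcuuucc
let-7f-1-3p: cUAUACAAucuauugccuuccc
miR-409-5p: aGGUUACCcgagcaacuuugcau
miR-409-3p: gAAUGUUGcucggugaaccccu
miR-191-5p: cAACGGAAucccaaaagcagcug
miR-191-3p: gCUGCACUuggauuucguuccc
miR-376a-5p: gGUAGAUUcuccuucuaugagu
miR-376a-3p: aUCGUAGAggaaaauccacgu
miR-299a-5p: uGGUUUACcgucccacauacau
miR-299a-3p: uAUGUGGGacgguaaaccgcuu
miR-380-5p: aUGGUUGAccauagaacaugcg
miR-380-3p: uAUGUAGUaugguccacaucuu
let-7e-5p and let-7f-5p share the seed GAGGUAG, the seed of the let-7 family, while the seeds of let-7e-3p and let-7f-1-3p differ. Among the annotated mouse miRNA hairpins, 13 of the 14 arms were found in a single one, and let-7f-5p was found in 2, those of Mirlet7f-1 and Mirlet7f-2. A count belongs to a whole row, so the counts do not tell the arms apart.

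The hairpins of Mirlet7e and Mirlet7f-1 show the usual case, in which the mature arms, in capitals, lie wholly inside the row but on its other strand. The Mir299a hairpin is the exception of the set, because its strands resemble each other.
Mirlet7e: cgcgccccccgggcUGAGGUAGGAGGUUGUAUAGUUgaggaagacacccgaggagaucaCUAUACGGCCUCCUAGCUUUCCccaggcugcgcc
Mirlet7f-1: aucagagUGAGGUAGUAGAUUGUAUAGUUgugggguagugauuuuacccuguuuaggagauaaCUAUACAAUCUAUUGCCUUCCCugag
Mir299a: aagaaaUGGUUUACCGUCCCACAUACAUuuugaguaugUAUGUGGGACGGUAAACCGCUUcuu
Mir299b: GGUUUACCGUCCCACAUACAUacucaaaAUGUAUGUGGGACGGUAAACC
In the Mir299b line, which is the strand of that row, the capitals mark runs of at least 12 bases that also occur in the Mir299a hairpin. Bases 2 to 22 of miR-299a-5p, a run of 21 bases, also occur on the other strand of the hairpin, and so do bases 1 to 18 of miR-299a-3p. For the other 12 arms the longest run that occurs on the other strand was 4 to 14 bases. A read that lies wholly within such a run matches both strands of this place. The arms of miR-299a extend 1 base and 4 bases past the ends of the Mir299b row, which is 49 bases long within the 63 bases of Mir299a.

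On mm10, Gm25927 occupies 17:17830343-17830459 on the minus strand, and Mirlet7e lies within it on the plus strand, in an intron of Spaca6, a gene of sperm-egg fusion. Gm24083 occupies 9:108568295-108568414 on the minus strand, and Mir191 lies within it in an exon of the long non-coding RNA 4833445I07Rik. Gm24111 occupies 13:48537825-48537921 on the plus strand, and Mirlet7f-1 lies within it on the minus strand, in an exon of the long non-coding RNA 6720427I07Rik. The 4 rows on chromosome 12 are all on the minus strand, with the partner gene on the plus strand. They are Mir299b at 109710645-109710693, Gm25750 at 109711779-109711890, Gm25252 at 109723756-109723875 and Gm24321 at 109743158-109743237. Mir409 lies in an intron of the long non-coding RNA Mirg, and Mir299a, Mir380 and Mir376a overlap no gene of another kind. Each of the 4 host genes named here is on the strand of the reads. Except for Mir299b, every one of the 8 rows contains the whole of its partner gene.

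The libraries held 10876035 reads in replicate 2 and 8747512 in replicate 1, of which 5680764 and 4261976 were counted on the strand of an annotated miRNA row and 215541 and 166543 on the opposite strand. Opposite-strand counts were thus 3.66% and 3.76% of the counts on both strands. Levels are given as CPM, the count divided by the library's total of own-strand counts, times 1000000. They are not scaled by length, since whole short RNAs are counted, and intervals cover counting error only. Marker miRNAs of the labelled tissue were present: 10 of 10 epithelial miRNAs were detected, at 12.3% and 10.8% of own-strand counts, and the smooth muscle pair Mir143 and Mir145a took 17.3% and 18.0%. The liver marker Mir122 took 0.0448% and 0.0994%, 3 pancreatic miRNAs 0.000475% and 0.000164%, 4 blood miRNAs 0.121% and 0.140%, 4 skeletal muscle miRNAs 62.1 and 60.5 CPM, and the 2 neuronal miRNAs with a row 4.05 and 6.57 CPM. At 0 in both libraries were 1 of the 2 neuronal, 2 of the 4 skeletal muscle and 1 of the 4 blood miRNAs, the last being Mir142b on its own strand. On its opposite strand, that of Mir142, the row Mir142b had 1485 and 1314 CPM, which the blood share leaves out and which is of the size of the whole blood sum of 1209 and 1401 CPM. Of the 6 neuronal genes listed only 2 had a row, and of the 5 skeletal muscle genes 4 did. Reads that map to several places are kept apart from the rows. Low levels and zeros of these lists therefore do not show how much nerve or skeletal muscle RNA was present. The part of the marked cell types in the levels of the 8 rows was not tested.

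The 8 rows carried most of the opposite-strand signal of the table. Together they held 203785 of the 215541 opposite-strand counts in replicate 2 and 158692 of the 166543 in replicate 1, that is 94.5% and 95.3%. Their summed level was 36554 ± 963 CPM (SD, n = 2), equal to 3.66% ± 0.0963 of the own-strand total. With Mir142b and Mir497b, 99.8% and 99.7% of the opposite-strand counts were accounted for, and 533 and 445 counts were left over all other rows.

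Gm25301, the row at Mir378a, was the most abundant. It occupies 61397813-61397925 on the plus strand of chromosome 18, and Mir378a lies within it in an intron of Ppargc1b on the minus strand. It had 101205 opposite-strand counts in replicate 2 and 77965 in replicate 1, with 0 own-strand counts in either, which allows an own-strand share of up to 0.00296% and 0.00385%. The levels of 17815 and 18293 CPM were close to each other, with a mean of 18054 ± 338 CPM, rank 16 among the 380 strand-resolved features with at least 20 counts. This row alone held 47.0% of the opposite-strand counts in replicate 2 and 46.8% in replicate 1.

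Gm25927, at Mirlet7e, had 26106 counts in replicate 2 and 21203 in replicate 1 on the opposite strand and 0 on its own, a level of 4596 and 4975 CPM. Gm24321, at Mir409, had 25397 and 20822 counts on the opposite strand and 0 on its own, a level of 4471 and 4886 CPM. The row at Mirlet7e was slightly above the row at Mir409 in each library, with means of 4785 ± 268 and 4678 ± 293 CPM whose ranges overlap. Gm24083, at Mir191, had 19232 and 15893 counts on the opposite strand and 0 on its own, a level of 3385 and 3729 CPM with a mean of 3557 ± 243. It lay below both rows at Mirlet7e and Mir409 in each library.

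Gm25252, at Mir376a, a miRNA whose human and mouse relatives are known for A-to-I editing, had 18184 counts in replicate 2 and 12060 in replicate 1 on the opposite strand and 0 on its own. The levels of 3201 and 2830 CPM averaged 3015 ± 263, and the coefficient of variation of 8.71% was the highest of the 8 rows. Mir299b had 9135 and 7165 counts on the opposite strand and 15 and 14 on its own, an opposite-strand share of 99.8% in either library. The exact Clopper-Pearson 95% intervals were 99.7% to 99.9% in both. Its level was 1608 and 1681 CPM, with a mean of 1645 ± 51.7. Reads wholly within a run that occurs on both strands match both. How fully the share, the level and the ratios formed from it cover the reads of this place was not tested.

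Gm25750, at Mir380, a miRNA known in mouse and human cells to repress p53, had 3577 and 2881 counts on the opposite strand and 0 on its own, which allows an own-strand share of up to 0.0839% and 0.104%. Its level was 630 and 676 CPM, with a mean of 653 ± 32.7. Gm24111, at Mirlet7f-1, was the lowest, with 949 and 703 counts on the opposite strand against 3 and 1 on its own. Its level of 167 and 165 CPM, mean 166 ± 1.49, had the smallest coefficient of variation, 0.898%, and rank 180 of the 380 features. From Gm24321 down, the values of each row did not overlap with those of the next one in the order, and the levels of the 8 rows spanned 2 orders of magnitude.

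**Figure D1:**
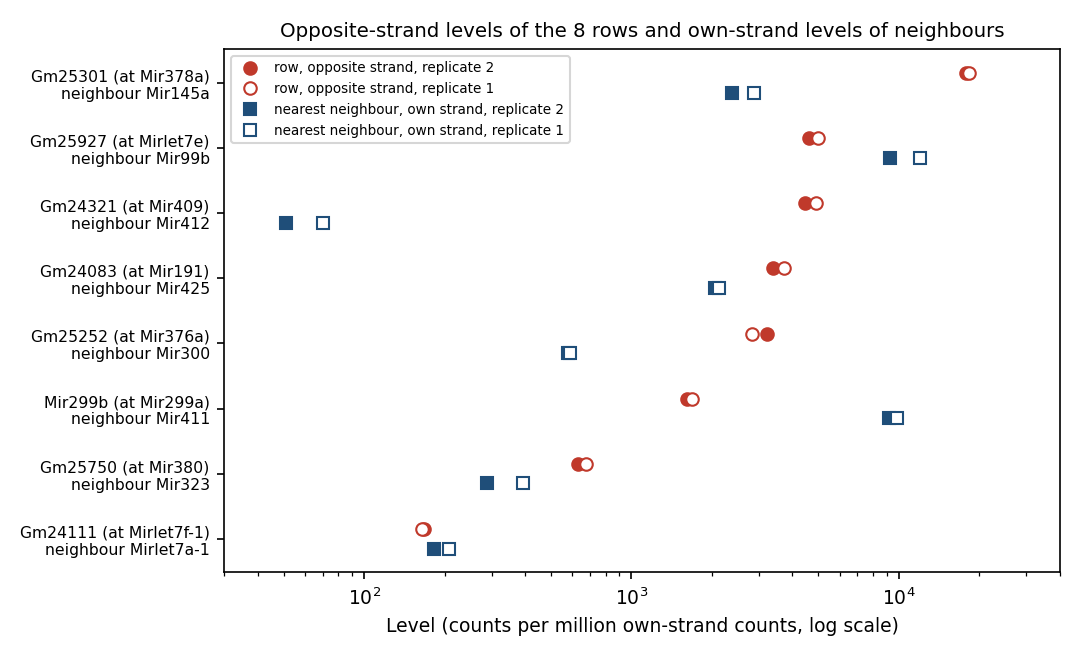
Opposite-strand level of each of the 8 rows (circles) and own-strand level of its nearest miRNA neighbour (squares), in CPM on a log axis, with replicate 2 filled and replicate 1 open. Gm25301 at 18054 CPM and Gm24111 at 166 CPM bound the 8 rows, and 5 rows lie above their neighbour and 3 below it in both libraries.

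The share of reads on the opposite strand, the measure behind the choice of rows, left 0 rows between a large group and a small one. Of the 373 rows with at least 20 counts on both strands summed, 10 rows (2.68%) had a share above 90%, 0 rows lay from 50% to 90%, and 363 had a share up to 50%. The 10 were the 8 rows and Mir142b and Mir497b. Just inside the threshold stood Gm24111 with 99.8%, and just outside stood Mir3074-1 with 46.4%, Mir1b with 34.4% and Mir3073a with 29.7%. Of the 363 rows, 326 had 0 opposite-strand counts and 9 exceeded 1%. The name of the set holds for 6 of the 8 rows without exception, since Mir299b and Gm24111 had 29 and 4 own-strand counts in both libraries summed.

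What the 8 rows have in common beyond the reads is an annotated miRNA gene on the other strand that has no row of its own among those read here. In the newer annotation, 32 rows overlap such a gene, and 0 of these 32 genes have a row. All 10 rows with a share above 90% overlap such a gene, while 0 of the 346 rows with at least 20 counts and no such gene had that share. Not every overlapping row was read in this way. Of the 27 such rows with at least 20 counts, 10 had a share above 90%, 4 had a share of 10% to 90%, and 13 were under 10%, of which 12 were under 1%. Mir126a, an endothelial miRNA that overlaps Mir126b, had 91 opposite-strand counts against 322024 on its own strand, and Mir30e, which overlaps Mir30f, had 0 against 163300. Mir337, inside the same imprinted domain as 4 of the rows, had 46 opposite-strand counts against 12186 on its own strand, and its partner Mir3544 is annotated opposite to it.

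**Figure D2:**
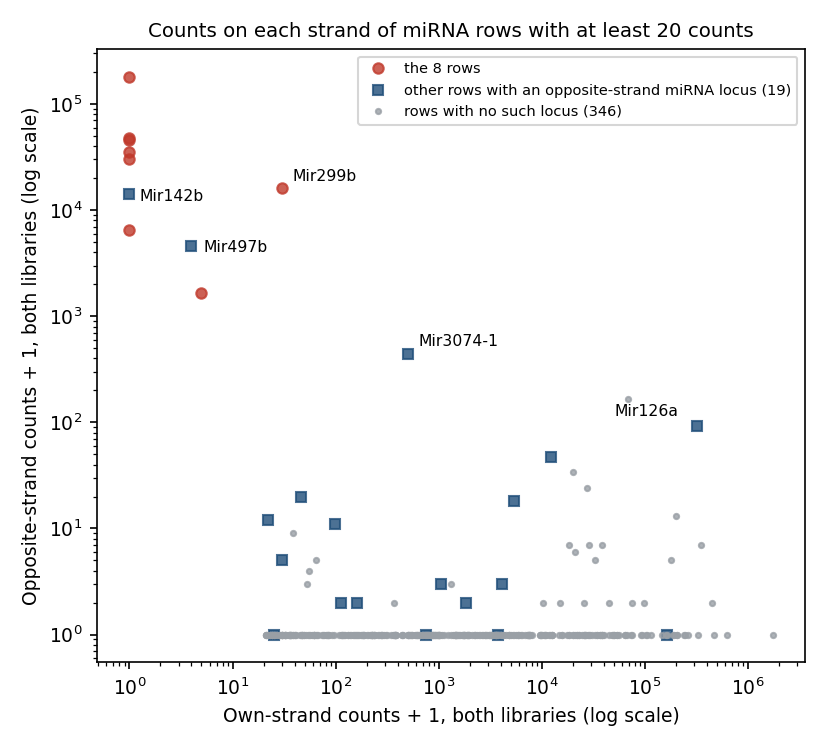
Opposite-strand counts (vertical) against own-strand counts (horizontal) of the 373 rows with at least 20 counts, both libraries summed, with 1 added, on log axes. The 8 rows and Mir142b and Mir497b stand at the upper left, Mir3074-1 stands between, and the other rows, including others with an annotated opposite-strand gene such as Mir126a, lie along the bottom.

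Set beside the nearest miRNA row read on its own strand, the 8 rows fell on either side of their neighbours. The neighbours were the nearest rows with at least 10 own-strand counts in both libraries, and all 8 were on the strand of the reads, with at most 1 opposite-strand count each. Within 1 kb, a neighbour was found for 7 rows. Of the 8 rows, 5 were above their neighbour in both libraries and 3 below. These are ratios of counts of different sequences and not measures of transcription.

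Gm24321 at Mir409 had 78.6 ± 13.1 times the counts of Mir412, which lies 52 bases away and had 60.6 ± 13.8 CPM. The per-library ratios were 87.9 and 69.4. Mir369 and Mir541, also within 2 kb, had levels near that of Gm24321, 3784 ± 660 and 3729 ± 376 CPM, while Mir410 had 91.5 ± 18.9. Mir412 was lower than these 3 rows as well as lower than Gm24321.

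Gm25301 had 6.94 ± 0.770 times the counts of Mir145a, a smooth muscle miRNA at 2622 ± 340 CPM. That neighbour lies 249900 bases away and is not part of the same cluster. Gm25252 at Mir376a had 5.16 ± 0.529 times the counts of Mir300, 438 bases away at 585 ± 9.07 CPM, and Mir376c, a relative in the same cluster, had 268 ± 37.8 CPM. Gm25750 at Mir380 had 1.96 ± 0.334 times the counts of Mir323, 618 bases away at 340 ± 74.8 CPM. Gm24083 at Mir191 had 1.70 ± 0.0782 times the counts of Mir425, 363 bases away at 2095 ± 46.6 CPM. In this pair, the ratios of 1.64 and 1.75 varied least among the rows above their neighbour.

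The other 3 rows were lower than their neighbours. Gm25927 at Mirlet7e had 0.455 ± 0.0571 of the counts of Mir99b, 86 bases away at 10639 ± 1924 CPM. Mir125a, the third miRNA of that cluster, had 2867 ± 803 CPM, so the row at Mirlet7e stood between the others of its cluster and held 26.4% ± 2.86 of the counts of the 3. Mir299b had 0.173 ± 0.00327 of the counts of Mir411, 389 bases away at 9499 ± 478 CPM, a ratio of 0.176 and 0.171. Gm24111 at Mirlet7f-1 had 0.853 ± 0.0867 of the counts of Mirlet7a-1, 258 bases away at 196 ± 18.1 CPM. Mirlet7d, 1711 bases away on the same strand of the transcript, had 14702 ± 463 CPM, and the row held 0.0111 and 0.0115 of its counts. Reads that map to several places are kept apart from the rows. The ratio of Gm24111 to Mirlet7a-1 thus compares only reads that could be placed at each locus.

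In the let-7 family, 10 of the 12 listed genes had a row of their own and all 10 were detected with at least 10 counts in both libraries. The other 2 are Mirlet7e and Mirlet7f-1. With the opposite-strand counts of their rows taken for them, Gm25927 ranked 5 and Gm24111 ranked 10 of the 12, and together they made 4951 ± 267 CPM beside 138744 ± 9845 CPM over the other 10, or 3.46% ± 0.416 of the family. Mirlet7g with 61466 ± 7000 CPM and Mirlet7i with 47038 ± 1824 CPM led the family. Mirlet7f-2, whose let-7f-5p has the same letters as that of Mirlet7f-1, had 2538 ± 105 CPM. Reads that map to several places are kept apart from the rows, and they made 25.7% of the reads in replicate 2 and 26.2% in replicate 1. The level at Mirlet7f-1 thus counts only reads that could be placed there. The same limit holds for Mirlet7f-2, and for Mirlet7c-1 and Mirlet7c-2, which are both listed with let-7c-5p. It can also hold for Mirlet7a-1, listed with let-7a-5p, and for Mirlet7a-2, the other let-7a gene of the list. Ranks, shares and ratios within the family therefore also depend on which sequences occur at a single place. Gm24111 at 166 CPM stood above Mirlet7c-2 at 93.8 CPM and Mirlet7c-1 at 86.2 CPM, and below the other 9 mean levels of the family.

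In the distal Dlk1-Dio3 cluster, the 4 rows on chromosome 12 held 20.7% of the counts in replicate 2 and 19.4% in replicate 1, that is 9991 ± 115 CPM beside 39932 ± 2756 CPM over 33 rows read on their own strand. Of the 39 genes listed, 33 had a row besides the 4 loci, and 29 of these were detected with at least 10 counts in both libraries. Among the 37 levels, Gm24321 ranked 3, Gm25252 ranked 8, Mir299b ranked 10 and Gm25750 ranked 14. Mir411 at 9499 CPM and Mir487b at 6443 ± 239 CPM were the only ones above Gm24321. The own-strand rows of the list had 1 opposite-strand count in replicate 2 and 0 in replicate 1, so all 4 rows stand out from the rest of their cluster in strand, which is the value they were chosen by.

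**Figure D3:**
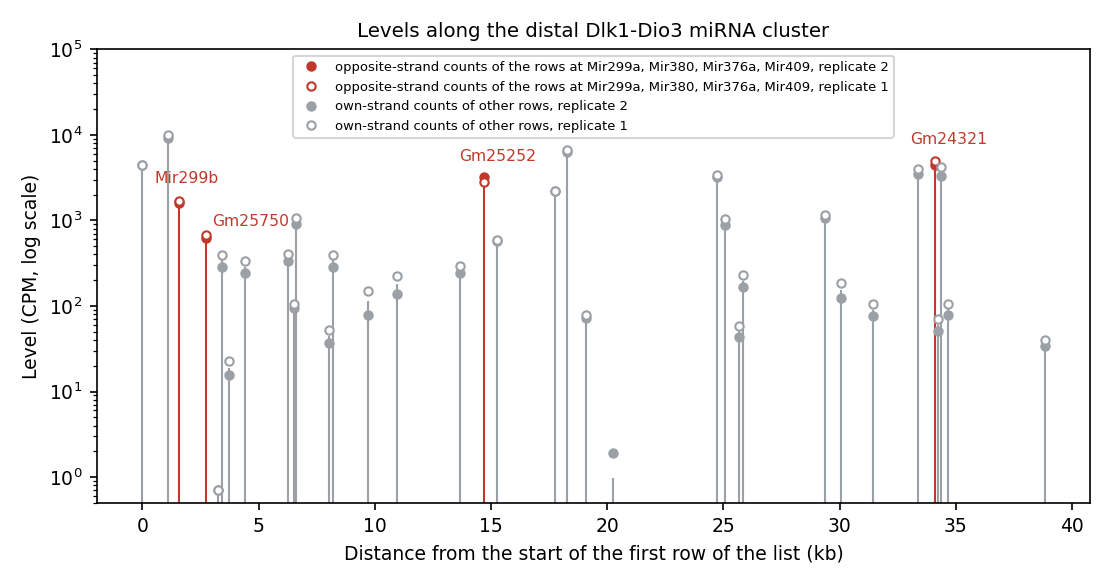
Levels in CPM (log axis) along the distal Dlk1-Dio3 cluster, by distance in kb from the first row of the list, with replicate 2 filled and replicate 1 open. The opposite-strand levels of Mir299b, Gm25750, Gm25252 and Gm24321 (red) lie among the upper 14 of the 37 levels, of which the others (grey) are own-strand levels and reach 9499 CPM at Mir411.

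The counts placed at the listed miR-378 genes lay almost wholly in 1 of these rows, and those placed at Mir191 and Mir425 lay mainly in another. Gm25301 at 18054 CPM was 99.8% ± 0.0427 of the counts of the 4 listed miR-378 genes, with the other 3 at 44.6 ± 8.58 CPM together. Reads that map to several places are kept apart from the rows here too. Whether the miR-378 genes share such reads was not tested, and the sequence table used had no entry for Mir378a. Gm24083 at Mir191 was 62.9% ± 1.08 of the counts of Mir191 and Mir425.

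The annotated sequence of each row was folded on both strands with RNAfold, a measure from sequence that the choice of rows did not use. The strand of the reads had the lower minimum free energy, that is the more stable predicted fold, in 6 of the 8 rows, with a median of -3.25 kcal/mol for the opposite strand minus the row's own strand. Among the other rows with at least 20 counts and a share up to 50%, the opposite strand was lower in 63 of 363 rows, 17.4%, with a median of 5.6 kcal/mol. Over all 1886 other rows it was lower in 467, 24.8%, with a median of 4.50 kcal/mol. The 8 rows were thus mostly on the side of the strand with the reads, and the other rows mostly on the side of their own strand, which was described and not tested. Mir142b and Mir497b, read like the 8, are in neither the 8 nor the 363. Mir142b was nearly equal, with -50.9 kcal/mol on the strand of the reads and -50.6 on its own. Mir497b went the other way, with -52.3 and -57.8 kcal/mol.

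Gm24111 at Mirlet7f-1 had the largest difference, with -46.8 kcal/mol on the strand of the reads and -30.9 kcal/mol on its own. Gm25252 had -33.7 against -27.0 kcal/mol, and Gm24321 had -38.3 against -32.6. Gm25927 had -52.8 against -49.4 kcal/mol, and Gm25750 had -39.8 against -36.7. Mir299b had -36.8 against -36.4 kcal/mol and so was nearly equal on both strands. The exceptions were Gm25301, with -63.8 on the strand of the reads and -65.7 on its own, and Gm24083, with -52.1 and -58.6 kcal/mol.

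Folding the shorter annotated hairpin of each partner gene gave the same count for different loci. The partner's own strand was lower in 6 of 8, with a median of -4.75 kcal/mol for its own strand minus the reverse. Among the 24 other genes annotated opposite to a row, it was lower in 10, with a median of 1.30 kcal/mol. These 24 include Mir142, with -26.9 against -26.8 kcal/mol, and Mir497, with -41.5 against -47.1 kcal/mol. Mir378a had -38.5 against -33.3 kcal/mol and Mir191 had -35.0 against -30.6, so at these loci the shorter hairpin went the other way from the longer row. The exceptions were Mir376a, with -16.6 against -19.1 kcal/mol, and Mir299a, with -42.1 against -42.3 kcal/mol.

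**Figure D4:**
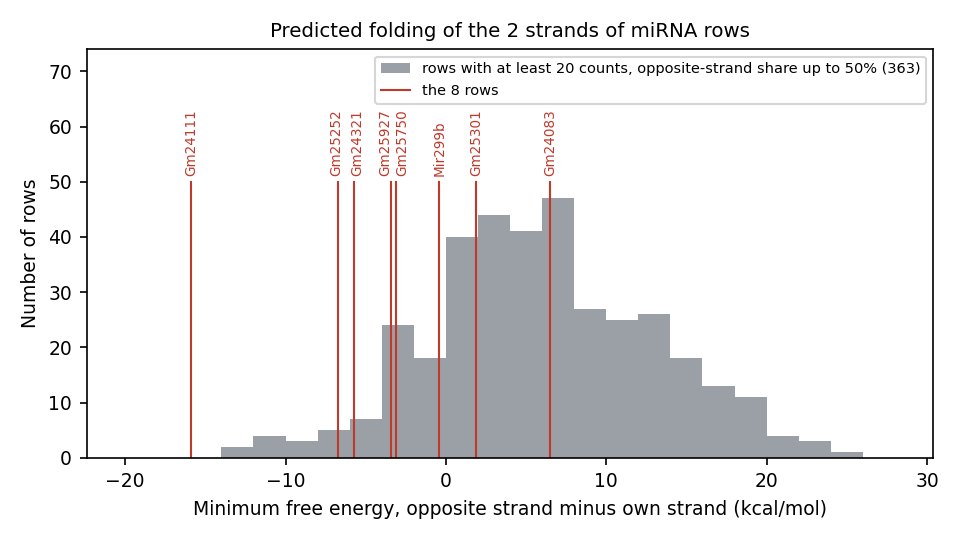
Minimum free energy of the opposite strand minus that of the row's own strand, in kcal/mol, for the 363 rows with at least 20 counts and an opposite-strand share up to 50% (grey histogram, number of rows) and for the 8 rows (red lines). Of the 8 lines, 6 lie left of 0, from Gm24111 at -15.9 to Mir299b at -0.4, and Gm25301 and Gm24083 lie right of it. Mir142b and Mir497b are not shown.

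The ratio of the libraries, replicate 2 over replicate 1, is formed from the same opposite-strand counts, although the choice rested on the strand of the reads and not on this ratio. It was tested for the 380 strand-resolved features with at least 20 counts with TMM scaling, by an exact binomial test (two-sided, conditional on the sum of both counts), and p-values were adjusted by Benjamini-Hochberg over all 380. This compares those libraries and covers counting error only. Past an adjusted p of 0.05 were 192 features (50.5%), of which 93 (24.5%) were higher in replicate 2 and 99 (26.1%) in replicate 1. Among the 8 rows, 3 passed, all higher in replicate 2, and 0 were higher in replicate 1. At an unadjusted p under 0.05 in the same exact test, 4 of the 8 rows were higher in replicate 2 and 0 in replicate 1, beside 101 and 105 of all features. The 3 of 8 stand beside the background of 50.5%, and their number in that direction beside 24.5%. That background includes features with far fewer counts, where a counting test passes less easily. Of the 179 features with at least as many counts as the lowest of the 8, 133 passed. Among these, 78 were higher in replicate 2 and 55 in replicate 1, so the background at such counts is higher than 50.5%. With libraries scaled by total counts instead, 49 features were higher in replicate 2 and 168 in replicate 1, and of the 8 rows 1 was higher in replicate 2 and 6 in replicate 1. Without the filter on low counts, 6 of the 8 rows were higher in replicate 2, beside 106 features higher in replicate 2 and 80 in replicate 1 overall. Scaling by total counts in place of TMM moves every log2 ratio by -0.13, so the direction for 5 of the rows depends on the scaling.

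Gm25252 at Mir376a was higher in replicate 2 under both scalings, with a log2 ratio of 0.31 (95% counting interval 0.27 to 0.34, adjusted exact p = 9.37e-73) with TMM and 0.18 with total counts. Gm25301 had a log2 ratio of 0.09 (0.08 to 0.10) and Mir299b one of 0.06 (0.02 to 0.11, adjusted exact p = 0.0112), and both of these turn negative under total-count scaling. Mir299b also did not pass with a minimum of 200 counts, where its log2 ratio was 0.04. Gm24111 had 0.15 with an adjusted exact p of 0.0793 and did not pass, and Gm25750, Gm25927, Gm24321 and Gm24083 had log2 ratios of 0.03, 0.01, 0.00 and -0.01. The 8 rows had a median of 0.05 and a range of -0.01 to 0.31, beside a median of -0.01 over all 380 features and 0.03 over the 179 features with at least as many counts as the lowest of the 8. Of 30 own-strand features of the distal Dlk1-Dio3 cluster, 6 were higher in replicate 2 and 18 in replicate 1, with a median of -0.18. The own strand of Mir299b is among the 30. The 4 rows inside that cluster had a median of 0.05 on the opposite strand, with 2 higher in replicate 2 and 0 in replicate 1. These groups were not matched for level. The own-strand rows of the cluster above Gm25750 in level had log2 ratios of either sign. They were 0.13 for Mir379, 0.11 for Mir381, 0.07 for Mir382, 0.05 for Mir487b, 0.03 for Mir154 and 0.03 for Mir411. Below 0 were Mir541 at -0.08, Mir134 at -0.09, Mir1193 at -0.12 and Mir369 at -0.23.

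**Figure D5:**
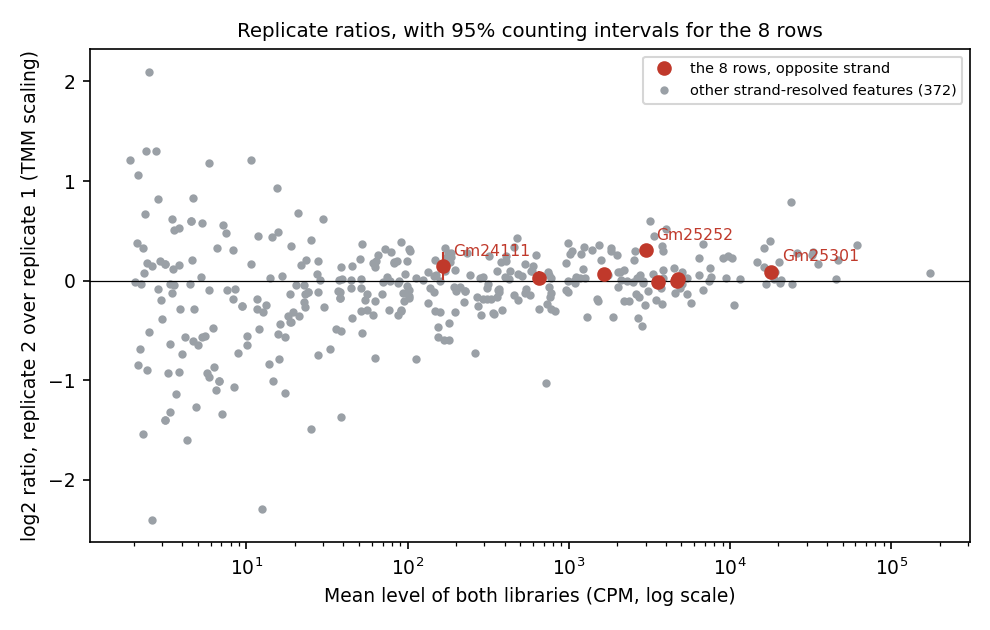
log2 ratio of replicate 2 over replicate 1 against mean level in CPM (log axis) for the 8 rows (red, with 95% counting intervals) and the other strand-resolved features tested (grey). Gm25252 at 0.31 is the highest of the 8 rows, and the other 7 lie from -0.01 to 0.15.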

How the data were processed

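Each library came with a table of read counts per annotated miRNA row, deposited by the authors: counts on both strands, on the strand of the gene and on the opposite strand, for mm10 and GENCODE M4 per the notes deposited with them. Which column is which strand was settled by the values. The aligner and the counter: not given in the sources used here. Rows were named from GENCODE M21 (1894 of 1973 found; the 79 others held 7 counts), and the 4 rows that name no gene were left out: unmapped reads 17.2% and 19.5%, multimapping 25.7% and 26.2%, no feature 2.88% and 3.69% and ambiguous 0 in replicates 2 and 1. The members and lists were chosen with earlier results of these data known. CPM, ratios and shares were computed in Python 3.11.15, the replicate test with scipy 1.17.1 on TMM sizes from edgeR 4.0.16 (R 4.3.3) with a prior of 0.5 counts, checked on simulated data, and minimum free energies with ViennaRNA 2.7.2. Named rows are the 8 members, the loci overlapping them, their neighbours, the list rows with at least 10 counts in both libraries, and rows above 50% opposite-strand share; Mir126a, Mir30e, Mir337, Mir1b, Mir3073a and Mir3074-1 were named after their values were seen. Alternatives changed the denominator, the neighbour minimum, the scaling (total counts, DESeq2 1.42.0 size factors), the count minimum and the strand.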

Additional observations from a re-analysis of the deposited data

Results flagged for a closer look

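Opposite-strand signal also appeared in rows outside the 8. Mir142b, at the locus of Mir142, a miRNA of blood cells, had 1400 CPM on the opposite strand and 0 on its own, and Mir497b, at the locus of Mir497, had 457 CPM on the opposite strand. Both were picked out because they lie outside the 8 rows and their opposite-strand levels exceed the limit that 3 counts allow, 0.528 CPM in replicate 2 and 0.704 CPM in replicate 1.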

How the results depend on the processing

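The libraries form a single group with 2 replicates, so sampling of embryos is covered only by their spread, and the 3-count floor is 0.528 CPM in replicate 2 and 0.704 CPM in replicate 1. No paired analysis was possible because all samples belong to 1 group. Of the 180 alternative values, 26 of the 36 summary values and 115 of the 144 single-row values stayed the same in direction, call or size. The sum of the 8 rows was 35198 CPM over counts on both strands and 42276 CPM with Mir143, the most abundant row, left out of the denominator. Under total-count scaling, 49 features were higher in replicate 2 and 168 in replicate 1, and of the 8 rows 1 and 6; the log2 ratios turned negative for Gm25301 (-0.037), Gm25927 (-0.11), Gm24321 (-0.13), Mir299b (-0.063) and Gm25750 (-0.10). With no filter on low counts, 6 of the 8 rows were higher in replicate 2, beside 106 features higher in replicate 2 and 80 in replicate 1. With a 1.5-fold minimum, 9 features were higher in replicate 2 and 30 in replicate 1, and 0 of the 8 rows in replicate 2. With a minimum of 1 count, the neighbour of Gm25750 became Mir1197, and the ratio 927. The total-count shift follows from the scaling itself; for the other settings the cause was not tested.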
